A study of Mus musculus with 4 samples.

Results

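The genes described here drive or brake the passage of a cell through G1: the D-type cyclin genes Ccnd1, Ccnd2 and Ccnd3, the kinase genes Cdk4 and Cdk6, the retinoblastoma gene Rb1, and the inhibitor genes Cdkn1a, Cdkn1b, Cdkn1c and Cdkn2c. Every array row that the platform annotation assigns to exactly 1 of these genes was kept, which gave 10 rows for 9 of the 10 genes, out of 28815 rows and 19935 named genes in all. Cdkn1b had 2 rows and the others 1 each. The row that carries Cdkn1a names a second gene too, so Cdkn1a was not analysed here.

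Bulge stem cells of the hair follicle were compared between CSA-treated and vehicle-treated mice, with 2 biological replicates per group on 4 one-colour arrays. CSA mice were male CD-1 animals of postnatal day 56 that received 100 mg/kg CSA into the peritoneum over 3 days. Vehicle mice had the same sex, strain and age and received the vehicle over the same 3 days. From the skin of both groups, taken in the second telogen, when follicles rest between growth cycles, cells positive for alpha6 integrin and CD34 were sorted. CSA is not spelled out in the labels; in calcineurin research the abbreviation stands for cyclosporine A, an inhibitor of that phosphatase. How many mice were pooled into a replicate is not in the labels, and the drug was given to the whole animal, not to the bulge alone.

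In G1, D-type cyclins bind Cdk4 or Cdk6, and the active kinase phosphorylates the retinoblastoma protein, which then releases E2F factors to switch on genes of DNA replication. Inhibitors of the INK4 family, such as the Cdkn2c product p18, bind Cdk4 and Cdk6, while those of the Cip/Kip family, such as the Cdkn1b product p27 and the Cdkn1c product p57, act on cyclin-kinase complexes. Bulge stem cells spend most of the hair cycle out of division, and earlier work in mice described Nfatc1, a transcription factor that calcineurin activates, as a repressor of Cdk4 in these cells. The series title asks how calcineurin and Nfatc1 bear on this quiescence.

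Cdk4 is the gene that ties Nfatc1 to this pathway, and the rows of Cdk4, Cdk6 and Cdkn2c were highest on the same array, vehicle replicate 1. Ccnd3 and Cdkn1b row 10542317 were highest on it too. Promoter sequences are shown here for Cdk4, Cdk6 and Cdkn2c only. They are RefSeq sequences of build GRCm38.p6, the 250 bases before the annotated start (for Cdkn2c the first of 2 starts listed), written 5′ to 3′ on the gene's strand. The Cdk4 stretch is chr10:127063285-127063534 on the plus strand, the Cdk6 stretch chr5:3343643-3343892 on the plus strand, and the Cdkn2c stretch chr4:109666757-109667006 on the minus strand. Capitals mark matches, on either strand, to the NFAT core GGAAA, the E2F-like motif TTTNNCGC or the GC box GGGCGG.
Cdk4: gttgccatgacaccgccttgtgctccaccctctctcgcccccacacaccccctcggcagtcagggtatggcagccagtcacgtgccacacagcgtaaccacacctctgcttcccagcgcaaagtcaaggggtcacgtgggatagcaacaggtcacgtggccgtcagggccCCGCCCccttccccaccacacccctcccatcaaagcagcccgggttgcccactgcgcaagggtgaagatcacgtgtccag
Cdk6: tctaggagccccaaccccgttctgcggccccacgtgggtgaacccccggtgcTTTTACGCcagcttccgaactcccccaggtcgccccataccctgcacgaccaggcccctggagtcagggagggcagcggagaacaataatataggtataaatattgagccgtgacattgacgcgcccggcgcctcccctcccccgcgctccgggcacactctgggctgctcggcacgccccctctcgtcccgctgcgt
Cdkn2c: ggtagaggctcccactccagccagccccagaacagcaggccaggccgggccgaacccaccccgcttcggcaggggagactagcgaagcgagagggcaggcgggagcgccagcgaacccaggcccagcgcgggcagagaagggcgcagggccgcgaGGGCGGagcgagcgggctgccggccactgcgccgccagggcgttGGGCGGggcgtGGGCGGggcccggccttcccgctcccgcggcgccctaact

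Cdk4 also had a reverse-complement match to GGAAA just after its start, beginning at position 30 of the transcript, within chr10:127063554-127063578 on the plus strand.
Cdk4 site: gccccccgggTTTCCgcgcgcctct
The same windows of all 32851 RefSeq promoters, which include the 50 bases after the start, held GGAAA in 61.3%, GGGCGG in 35.7% and TTTNNCGC in 5.17%, so the first of these is a common string. The Cdk6 match to TTTNNCGC began 198 bases before the start. These matches describe the letters only, and factor binding was not measured in this series.

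All values are on a log scale taken as log2, centred gene by gene on a baseline of the authors. A value of 1 thus means a doubling over that baseline, and levels of different genes cannot be set against each other. Neither the log base nor the baseline nor the normalization was given in the sources used here. Array medians lay between -0.02 and 0.06 and standard deviations over rows between 0.371 and 0.473. CSA replicate 2 and vehicle replicate 2 resembled each other most over all rows (Pearson r = 0.516), and the 2 CSA arrays little (r = 0.06). Vehicle replicate 1 stood apart: it held the highest value in 43.9% of rows, against 21.6% for CSA replicate 1, 20.3% for CSA replicate 2 and 14.2% for vehicle replicate 2. Of the sort markers, Cd34 stood at 1.75 and 3.60 on the CSA arrays, against 4.05 and 4.25 on the vehicle arrays, above the baseline on all 4. Itga6, which encodes the alpha6 integrin, stood at -0.70 and -0.53 on the CSA arrays, against -0.9995 and 0.08 on the vehicle arrays.

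The genes of the cyclin D kinases had lower means in CSA, but Ccnd3 differed by only -0.11 and Cdk4 overlapped between groups. None of these genes passed the test over all rows. All 5 of these genes, Ccnd1, Ccnd2, Ccnd3, Cdk4 and Cdk6, had a lower mean in CSA, as did 57.9% of all rows. Their median log2 difference was -1.06, against a median of -0.04 over all rows. Without vehicle replicate 1 Ccnd1 and Ccnd2 differed by -1.55 and -1.15, Cdk4 and Cdk6 by -0.26 and -0.29, and Ccnd3 by -0.11. Without CSA replicate 1 the differences ran from -1.01 for Cdk6 to -0.09 for Ccnd3. For 4 of the 5 both CSA arrays lay below both vehicle arrays. The inhibitor genes were mixed, with 3 of 4 rows lower and a median of -0.14, and Rb1 stood higher in CSA. Over the 10 rows, 5 were lower and 1 was higher in CSA with no overlap between the arrays, whereas 15.2% and 11.4% of all rows did so.

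limma called 0 rows at an adjusted p under 0.05, in these genes and in the whole table, and each of the 10 rows had an adjusted p of 0.9999. At an unadjusted p under 0.05 limma gave 3 of the 10 rows, Ccnd1, Ccnd2 and Rb1, and 845 of all rows (2.93%). These 3 calls depend on the setting: with the replicate number as a block Rb1 had an unadjusted limma p of 0.0583 and the Cdkn1b row 10542310 one of 0.0482. Means at least 1.5-fold apart with no overlap were found for 4 rows lower in CSA (Ccnd1, Ccnd2, Cdk6 and Cdkn2c; 1.96% of all rows) and 1 higher (Rb1; 3.62% of all rows). An exact permutation test of 2 arrays against 2 cannot give a two-sided p below 0.333. In bulk RNA of sorted cells, fewer cells of a kind and less RNA per cell cannot be told apart.

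**Figure D1:**
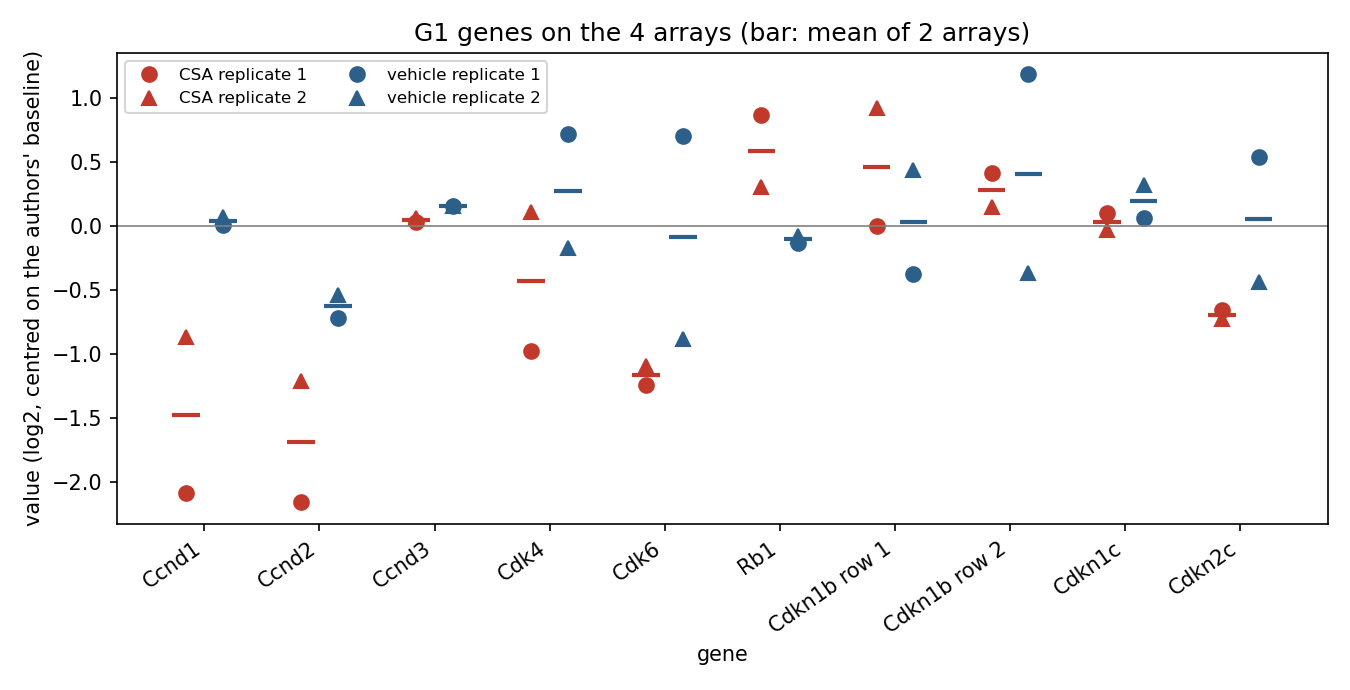
Values of the 10 rows on the 4 arrays (y axis, log2 relative to the authors' baseline), with CSA in red left of vehicle in blue, circles for replicate 1, triangles for replicate 2 and a bar for the mean of 2 arrays. Both CSA arrays lie below both vehicle arrays for Ccnd1, Ccnd2, Ccnd3, Cdk6 and Cdkn2c and above them for Rb1.

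Ccnd1 encodes cyclin D1, the D-type cyclin that mitogens and Wnt signals are best known to induce. It stood at -2.09 and -0.87 on the CSA arrays, against 0.01 and 0.07 on the vehicle arrays. Both vehicle arrays sat at the baseline and both CSA arrays below it, with CSA replicate 1 the lowest of the 4. CSA minus vehicle was -1.52 ± 0.46 on the log2 scale (here and below, ± gives the moderated standard error of limma with n = 2 per group), with a 95% interval of -2.81 to -0.23. On the linear scale the vehicle mean was 2.87 times that of CSA. Only 0.524% of all rows had a difference of this size or more in either direction. The difference was -0.91 without CSA replicate 1 and -2.13 without CSA replicate 2, so its size moved with the CSA array kept while its sign did not.

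Ccnd2, which encodes cyclin D2, went the same way. It stood at -2.16 and -1.22 on the CSA arrays, against -0.72 and -0.54 on the vehicle arrays. All 4 arrays were below the baseline, and again CSA replicate 1 was the lowest. The difference was -1.06 ± 0.37 (95% interval -2.10 to -0.02), and it was -0.59 without CSA replicate 1 and -1.53 without CSA replicate 2.

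Ccnd3, which encodes cyclin D3, had the smallest difference of the 10 rows. CSA arrays read 0.03 and 0.07, against 0.16 and 0.15 for vehicle arrays. The arrays did not overlap, but the difference of -0.11 ± 0.13 had a 95% interval of -0.48 to 0.26 and was below the median absolute difference of all rows, 0.146. The 3 D cyclins were compared within each array, as a description with no test, since these pairs were picked with the values in view. Ccnd1 minus Ccnd3 was -2.12 and -0.94 on the CSA arrays, against -0.15 and -0.08 on the vehicle arrays. Ccnd2 minus Ccnd3 was -2.19 and -1.28 on the CSA arrays, against -0.88 and -0.69 on the vehicle arrays. Both differences were lower on both CSA arrays than on either vehicle array. Their size depends on the unstated baselines, so only the change between arrays can be read. Ccnd3 varied little, so this change mostly restates the Ccnd1 and Ccnd2 rows. Ccnd1 minus Ccnd2 was 0.07 and 0.35 on the CSA arrays, against 0.72 and 0.61 on the vehicle arrays.

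Cdk4 and Cdk6 encode the kinases that the D cyclins activate. Cdk4 stood at -0.98 and 0.11 on the CSA arrays, against 0.72 and -0.17 on the vehicle arrays. The groups overlapped, since CSA replicate 2 lay above vehicle replicate 2. Its difference of -0.70 ± 0.52 (95% interval -2.18 to 0.77) shrank to -0.16 when CSA replicate 1 was left out and to -0.26 when vehicle replicate 1 was. Leaving out CSA replicate 2 gave -1.25, and leaving out vehicle replicate 2 gave -1.15.

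Cdk6 stood at -1.24 and -1.09 on the CSA arrays, against 0.71 and -0.88 on the vehicle arrays. Vehicle replicate 2 lay close to both CSA arrays, and vehicle replicate 1 far above the other 3. The difference was -1.08 ± 0.59 (95% interval -2.73 to 0.57), and it came to -0.29 without vehicle replicate 1, against -1.87 once vehicle replicate 2 was the one left out. Cdk6 minus Cdk4 was -0.26 and -1.21 on the CSA arrays, against -0.01 and -0.71 on the vehicle arrays, and the groups overlapped.

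Rb1 encodes the retinoblastoma protein, the substrate through which the cyclin D kinases act. It stood at 0.87 and 0.31 on the CSA arrays, against -0.13 and -0.08 on the vehicle arrays. Both CSA arrays were above the baseline and both vehicle arrays just below it. The difference of 0.69 ± 0.24 (95% interval 0.01 to 1.37) lay between 0.41 and 0.97 when each array was left out in turn.

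Cdkn2c encodes p18, the INK4 inhibitor of Cdk4 and Cdk6. It stood at -0.66 and -0.73 on the CSA arrays, against 0.54 and -0.44 on the vehicle arrays. As for Cdk6, vehicle replicate 1 was far above the other 3 arrays. The difference was -0.75 ± 0.37 (95% interval -1.80 to 0.31), and it came to -0.26 with vehicle replicate 1 left out, against -1.23 with vehicle replicate 2 left out.

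The Cip/Kip inhibitors showed no separation of the groups. Cdkn1b encodes p27, and its 2 rows disagreed. Row 10542310 stood at -0.003 and 0.92 on the CSA arrays, against -0.37 and 0.44 on the vehicle arrays, a difference of 0.43 ± 0.46. Row 10542317 stood at 0.42 and 0.15 on the CSA arrays, against 1.19 and -0.37 on the vehicle arrays, a difference of -0.13 ± 0.58. In both rows the groups overlapped. The difference of the first row was -0.036 without CSA replicate 2, and that of the second was 0.65 without vehicle replicate 1, so the sign of neither row held when single arrays were left out. By replicate number, the first row was higher in CSA by 0.37 for replicate 1 and by 0.48 for replicate 2. The second row differed by -0.77 for replicate 1 and by 0.52 for replicate 2. The labels do not say that a replicate number pairs samples. Cdkn1c, an imprinted gene that encodes p57, stood at 0.10 and -0.03 on the CSA arrays, against 0.07 and 0.32 on the vehicle arrays. Its groups overlapped, and its difference was -0.16 ± 0.17 (95% interval -0.63 to 0.31).

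**Figure D2:**
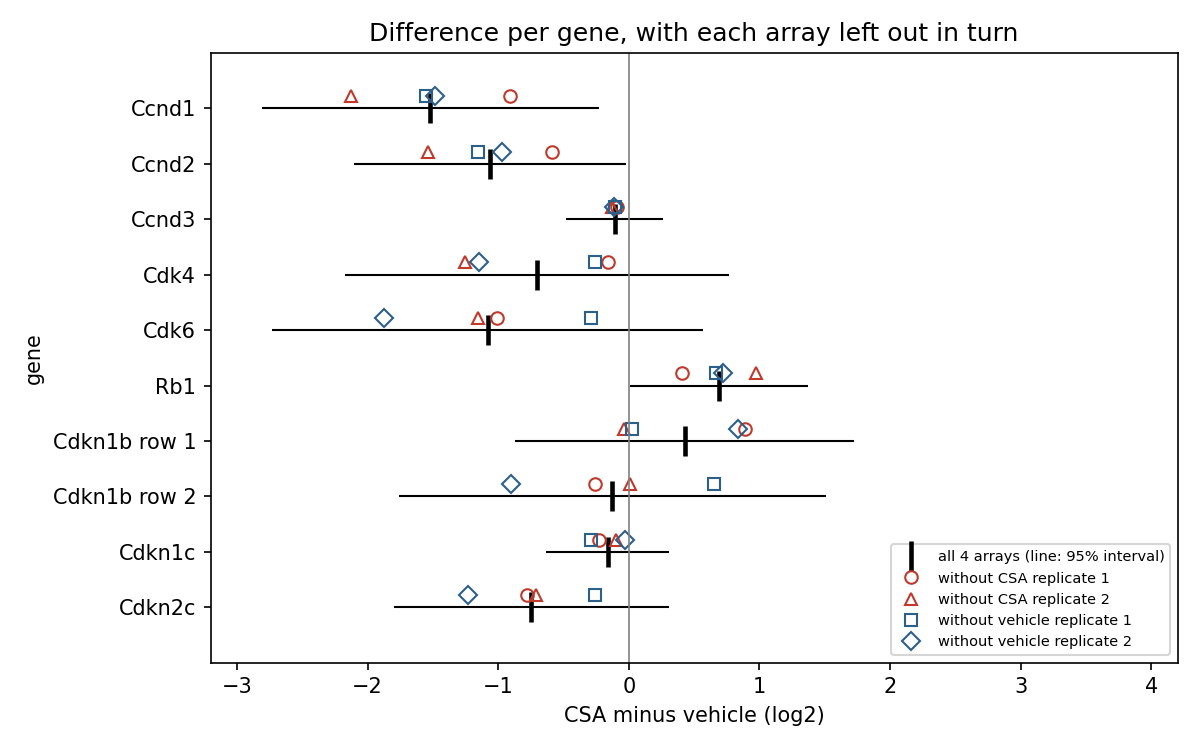
Log2 difference CSA minus vehicle for each of the 10 rows (x axis), with the 95% interval of limma as a line and the difference after leaving out each array as an open symbol, red for a CSA array and blue for a vehicle array. Ccnd1 and Ccnd2 keep values of -0.59 or lower in all 4 cases, while Cdk6 comes to -0.29 and Cdkn2c to -0.26 without vehicle replicate 1.

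Vehicle replicate 1 was the highest array for 5 of the 10 rows (Ccnd3, Cdk4, Cdk6, Cdkn2c and the second Cdkn1b row), a share near the 43.9% of all rows for which it was the highest. It was also the highest for all 7 measured markers of differentiated epidermis, all 7 immune markers, all 5 endothelial markers and 5 of 6 fibroblast markers. The other lists did not share this, with 1 of 10 bulge, 1 of 6 melanocyte, 1 of 5 sebaceous gland and 1 of 4 hair germ markers highest on it. The epidermal list had medians of -1.16 and -0.67 on the CSA arrays, against 0.47 and -0.40 on the vehicle arrays. Krt1, a keratin of the layers above the basal one, stood at -2.72 and -2.31 on the CSA arrays, against 0.10 and -2.15 on the vehicle arrays, the same order as Cdk6. The immune list had medians of -0.11 and -0.11 on the CSA arrays, against 0.14 and -0.15 on the vehicle arrays. Since values are centred, they do not show whether such a marker was absent, and the part of other cells in the Cdk4, Cdk6 and Cdkn2c values was not tested. The Ccnd1 difference was -1.55 and the Ccnd2 difference -1.15 without vehicle replicate 1.

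CSA replicate 1 was the lowest array for 5 of the 10 rows and for 21.4% of all rows. It was also the lowest for 5 of the 7 epidermal markers and for 8 of the 10 bulge markers. The bulge list had medians of 0.38 and 1.15 on the CSA arrays, against 0.97 and 1.26 on the vehicle arrays. Cd34, Cd200 and Postn were lower on both CSA arrays than on either vehicle array (15.2% of all rows). For the other bulge markers the groups overlapped. Lgr5, a receptor of bulge and hair germ stem cells, stood at 1.22 and 3.70 on the CSA arrays, against 2.70 and 3.02 on the vehicle arrays. The part of this array's bulge markers in the Ccnd1 and Ccnd2 values was not tested.

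**Figure D3:**
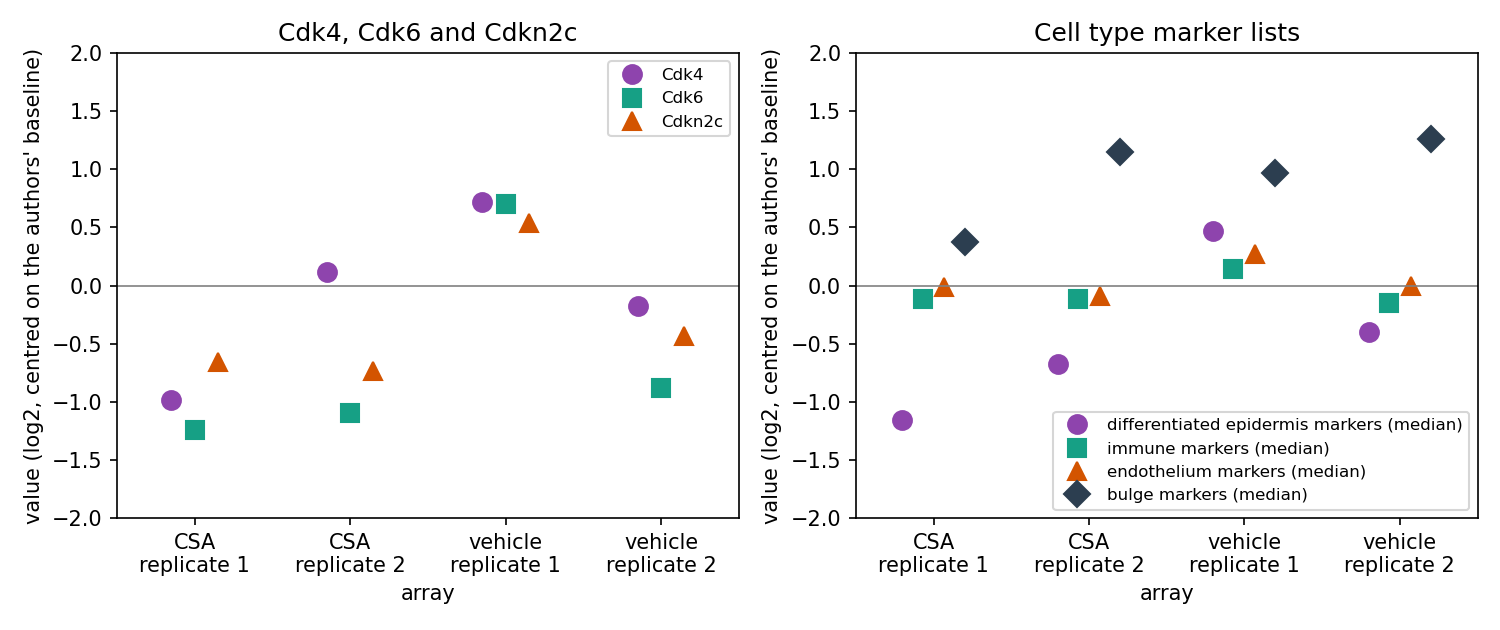
Values on each array (y axis, log2 relative to the authors' baseline) of Cdk4, Cdk6 and Cdkn2c on the left and medians of 4 cell type marker lists on the right. Vehicle replicate 1 is the highest array for the 3 genes and for the epidermal, immune and endothelial medians, and CSA replicate 1 is the lowest for the bulge median.

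Other genes of the pathway were counted from lists, and 0 of their 84 rows passed the limma test over all rows, with 5 at an unadjusted p under 0.05 (2.93% of all rows). Among E and A cyclins, their kinase and phosphatase partners and further inhibitors, 7 of 12 rows were higher and 5 lower in CSA. Their median of 0.38 came to 0.04 without vehicle replicate 1 and to 0.05 without CSA replicate 1. Of the 12 rows 4 were higher without overlap (11.4% of all rows). The INK4 inhibitor gene Cdkn2d, which encodes p19, stood at 0.42 and 0.30 on the CSA arrays, against -0.56 and 0.02 on the vehicle arrays (0.63 ± 0.25), where its relative Cdkn2c was lower. Cdc25a, a phosphatase that activates Cdk2, stood at 0.27 and -0.14 on the CSA arrays, against -0.91 and -0.46 on the vehicle arrays (0.75 ± 0.25). Neither overlapped between groups.

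Among pocket proteins, E2F factors and the DREAM complex, which represses cell cycle genes in resting cells, 11 of 20 rows were higher and 9 lower (median 0.11). Lin54, the DNA-binding subunit of DREAM, stood at 0.20 and -0.01 on the CSA arrays, against -0.66 and -0.90 on the vehicle arrays (0.87 ± 0.18). Its partner Lin37 differed by 0.34 ± 0.20 and E2f5, which encodes an E2F factor that binds pocket proteins, by 0.65 ± 0.23. None of these 3 overlapped between groups. Over the whole list 3 rows were higher and 3 lower without overlap, against 11.4% and 15.2% of all rows. The lower ones were E2f1 (-0.15), E2f8 (-0.24) and the DREAM subunit gene Lin9 (-0.22). The other pocket protein genes Rbl1 and Rbl2 differed by -0.17 ± 0.27 and 0.40 ± 0.29, and for both the groups overlapped.

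Genes that E2F switches on at S phase entry were split, with 8 rows higher and 8 lower and a median of -0.003. Without overlap 3 rows were lower (Mcm3, Mcm6 and the first Tk1 row below) and 0 higher, against 15.2% and 11.4% of all rows. Tk1, thymidine kinase, had 2 rows that differed by -0.87 ± 0.27 and -0.35 ± 0.79. Rrm2, a subunit of ribonucleotide reductase, stood at 1.01 and -0.24 on the CSA arrays, against -0.75 and -0.23 on the vehicle arrays. Its groups overlapped, and its difference was 0.88 ± 0.51. Mcm6 of the replicative helicase differed by -0.26 ± 0.14.

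Of the mitosis and proliferation genes 8 of 12 rows were lower in CSA, against 57.9% of all rows (median -0.17, and -0.04 without vehicle replicate 1). Of the 12 rows 4 were lower and 0 higher without overlap, against 15.2% and 11.4% of all rows. The proliferation marker Mki67 stood at -0.40 and -0.55 on the CSA arrays, against 0.26 and -0.26 on the vehicle arrays (-0.48 ± 0.24). Top2a, a topoisomerase of dividing cells, had 2 rows that disagreed, at -0.93 ± 0.22 and 0.17 ± 0.23. Cdk1, the mitotic kinase, differed by -0.43 ± 0.23.

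Genes that act on the turnover of cyclin D and p27 went both ways, 5 rows each (median 0.06). Fbxo31, a ubiquitin ligase subunit for cyclin D1, had rows at -0.07 ± 0.26 and -0.38 ± 0.16. Ambra1, which directs D cyclins to degradation, differed by 0.42 ± 0.25. Fbxw7, a ligase subunit for cyclin E, had rows at 0.25 ± 0.18 and -0.78 ± 0.79.

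Of the 14 rows of upstream regulators 9 were higher and 5 lower (median 0.08). Nfatc1 stood at 0.13 and 1.20 on the CSA arrays, against 0.60 and 0.54 on the vehicle arrays, so the CSA arrays lay on both sides of vehicle. The forkhead factor gene Foxo1 stood at 1.60 and -0.16 on the CSA arrays, against -0.15 and -0.07 on the vehicle arrays, high on CSA replicate 1 alone. The growth factor response gene Myc stood at 0.91 and -0.44 on the CSA arrays, against -0.64 and -0.25 on the vehicle arrays, and its groups overlapped as well. Mycn differed by -0.25 ± 0.17.

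**Figure D4:**
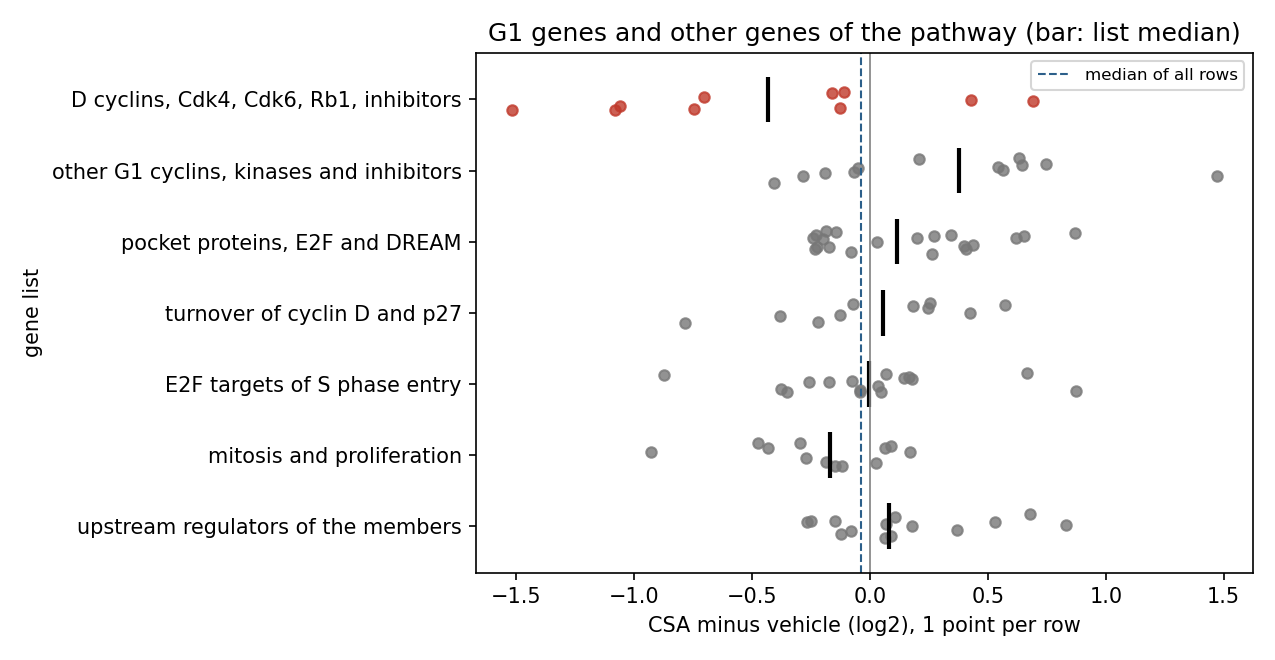
Log2 differences CSA minus vehicle (x axis), 1 point per row, for the 10 rows of this gene group in red and for the other lists of the pathway in grey, with a black bar at each list's median and a dashed line at the median of all rows, -0.04. The red group has a median of -0.43, and the next list down has 0.38. These medians (values not drawn) are -0.26 and 0.04 without vehicle replicate 1, and -0.24 and 0.05 without CSA replicate 1.

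Rows of other genes were ranked by how close their 4 values lay to those of Ccnd1 and of Cdk4, by Euclidean distance over the 4 arrays. Igfbp3, which encodes a binding protein of insulin-like growth factors, came nearest to Ccnd1 at a distance of 0.296, with -2.18 and -0.60 on the CSA arrays, against 0.02 and -0.02 on the vehicle arrays. Slc26a2, a sulfate transporter gene, followed at 0.433 and Fam111a at 0.586. Nearest to Cdk4 were Ankrd40 at 0.119, Clptm1l at 0.198 and Zfp931 at 0.235. With 4 arrays these distances are a description of these samples only.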

How the data were processed

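RNA of sorted bulge cells was measured on 4 one-colour arrays, 2 CSA and 2 vehicle, grouped by sample title. Per the labels' protocols, 20 ng of total RNA was amplified in 1 round and labelled as biotinylated cDNA. The deposited values were taken as log2 and are centred per row by the authors on an unstated baseline; the submitters' processing notes name only build mm8, and how probes were summarized and arrays normalized was not given in the sources used here. Of 28815 rows 21780 name 1 gene, 1605 several and 5430 are not listed. The number of arrays limits the precision.

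CSA and vehicle were compared with limma 3.58.1 in R 4.3.3 (lmFit, eBayes without a trend, two-sided, no block, no filter), with Benjamini-Hochberg adjustment over all 28815 rows, and tested on simulated data. The design text calls the replicates biological, and p-values measure only the spread between these samples. The labels do not say that a replicate number pairs samples, and the fit did not use it. Named genes were all 10 rows, per list the 3 genes ranking first by absolute moderated t, and the 3 rows nearest to Ccnd1 and to Cdk4; Nfatc1, Rbl1, Rbl2 and the markers named were chosen outside this rule. Marker lists of hair germ, sebaceous gland and melanocyte had medians of 0.10, -0.02 and -0.02, and fibroblast and endothelial lists of -0.10 and -0.14. Genes and lists were chosen with earlier results of these data known. Alternatives were quantile normalization, median centring, 1 row per gene, a trend, no moderation, a replicate block, a filter on the mean and leaving out each array.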

Additional observations from a re-analysis of the deposited data

How the results depend on the processing

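Of 11 alternatives 5 (trend, no moderation, block, 1 row per gene, filter) keep the difference of each row they retain by construction. The setting of 1 row per gene left out Cdkn1b row 10542310, and the filter left out the rows named below. Under the other 6 the differences of 8 of the 10 rows kept their sign. No row passed at an adjusted p under 0.05 under any of the 11 (smallest limma adjusted p over all rows 0.5909). The exceptions were the Cdkn1b rows: row 10542310 gave -0.036 without CSA replicate 2 (range to 0.89 with other arrays left out), and row 10542317 gave 0.0056 without CSA replicate 2 and 0.65 without vehicle replicate 1 (range from -0.90); the cause was not tested. Quantile normalization gave -1.63 for Ccnd1 and -1.21 for Ccnd2. Unadjusted limma p over the alternatives ran between 0.00124 and 0.131 for Ccnd1, 0.00467 and 0.377 for Ccnd2 and 0.0183 and 0.175 for Rb1. Ccnd2 was above 0.05 with the trend (0.377), median centring (0.0638) and no moderation (0.158), Rb1 with quantile normalization (0.057), the block (0.0583) and no moderation (0.135), and Ccnd1 with no moderation (0.131), besides fits with an array left out. With each array left out, differences ran between -2.13 and -0.91 for Ccnd1, -1.53 and -0.59 for Ccnd2, -1.25 and -0.16 for Cdk4, -1.87 and -0.29 for Cdk6, -1.23 and -0.26 for Cdkn2c, and 0.41 and 0.97 for Rb1. The filter on the mean removed rows whose mean lay under the 25th percentile of all rows. Since values are centred gene by gene, this mean does not track abundance, and low values on the CSA arrays entered it. The filter kept 5 of the 10 rows and left out those of Ccnd1, Ccnd2, Cdk4, Cdk6 and Cdkn2c. After it 889 rows were 1.5-fold apart without overlap, against 1606. With the replicate block 1366 rows, against 845, had an unadjusted limma p under 0.05, and Ccnd1 had an adjusted p of 0.8676; the numbers share a correlation of 0.216 in their deviations from the group means, which 2 pairs cannot settle. With each array left out these counts ran between 687 and 2146 rows for unadjusted limma p, 16462 and 20954 rows for no overlap (7661 with all arrays), and 2184 and 4553 rows for 1.5-fold without overlap; 1 array against 2 overlaps less often by construction.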

Other observations

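Cdk7, Ccnh and Mnat1 encode the kinase that activates Cdk4, Cdk6 and other cyclin-dependent kinases. All their rows had a higher mean in CSA, whereas 57.9% of all rows had a lower one. Of the 2 Cdk7 rows, row 10411711 stood at 0.20 and 0.33 on the CSA arrays, against -1.65 and -0.77 on the vehicle arrays (1.47 ± 0.35, limma adjusted p = 0.9999). The other Cdk7 row stood at 1.30 and 0.34 on the CSA arrays, against -0.47 and 1.70 on the vehicle arrays, and its groups overlapped (0.21 ± 0.86). Ccnh stood at 0.05 and 0.25 on the CSA arrays, against -0.76 and -0.03 on the vehicle arrays (0.54 ± 0.30), without overlap. Mnat1 stood at -0.06 and 0.24 on the CSA arrays, against -1.16 and 0.06 on the vehicle arrays (0.64 ± 0.47), with overlap. Rows higher in CSA without overlap made up 11.4% of all rows. Vehicle replicate 1 was the lowest array for all 4 rows and for 20.0% of all rows, where it was the highest for Cdk4 and Cdk6. Without vehicle replicate 1 Cdk7 row 10411711 differed by 1.03 and the other Cdk7 row by -0.87, Ccnh by 0.18 and Mnat1 by 0.03. These genes were set together after their values were seen.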
